A study of Mus musculus with 4 samples.

Results

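The transcripts of 5 acute phase genes, Lcn2, Serpina3n, Cp, Steap4 and Serping1, were followed across the cell classes of injured and uninjured mouse spinal cord. The genes were found by symbol among 32287 gene features, and each matched 1 feature. All groups came from Cx30-tdTomato mice, a cross of a Cx30 line with a tdTomato Cre reporter line. Tamoxifen, given before surgery, switched on the reporter in cells expressing Cx30, a gap junction gene used to label astrocytes. All mice carried an intravenous pool of enhancer AAVs. Single cells positive for tdTomato were sorted from 5 mm segments, either 3 days after a thoracic contusion (injured) or from uninjured controls at the same level. Each condition was 1 library of pooled animals, 1 or 2 of each sex according to the design text.

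Acute phase genes encode secreted and iron-handling proteins that the liver makes in large amounts when interleukin-6, interleukin-1 or related cytokines signal through STAT3, C/EBP and NF-kB factors. Several of them are also made inside the nervous system, where Lcn2 and Serpina3n are widely used marks of reactive astrocytes. Lipocalin 2 (Lcn2) binds the siderophores that bacteria use to take up iron, and ceruloplasmin (Cp) is a copper-bearing enzyme that oxidises iron for export. Steap4 encodes a membrane metalloreductase, Serpina3n an extracellular protease inhibitor, and Serping1 the C1 inhibitor, which holds the first step of the classical complement pathway in check.

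On GRCm38 all 5 are protein-coding genes. Lcn2 lies at chr2:32384633-32388252 on the minus strand and Serping1 at chr2:84765387-84775444, also on the minus strand. Cp lies at chr3:19957054-20009145, Steap4 at chr5:7960457-7982213 and Serpina3n at chr12:104406729-104414329, each on the plus strand. In the last 500 bases of their annotated transcripts, where 3' reads fall, 0 of the 50-base windows of any of the 5 genes occurred in a transcript of another gene. This matters most for Serpina3n, which sits in a cluster of close relatives.

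RefSeq promoter windows (GRCm38.p6, 250 bases before to 50 after the start) were found for 4 of the 5 genes, all but Serping1. They were searched on both strands for AP-1 (TGANTCA), STAT (TTCNNNGAA), NF-kB (GGG, then any 2 bases, then TTTCC) and C/EBP (TTGCNNAA) letters, which occur in 7.81%, 8.30%, 1.63% and 10.8% of the 32851 promoters of that length. The windows of Lcn2 and Serpina3n are shown because these genes had the largest differences in astrocytes, and that of Steap4 because it held the most motif matches and yet was nearly undetected there. Capitals mark the matches, none of which overlap. The windows are chr2:32387690-32387989 (minus strand), chr12:104406458-104406757 (plus strand) and chr5:7960222-7960521 (plus strand).
Lcn2: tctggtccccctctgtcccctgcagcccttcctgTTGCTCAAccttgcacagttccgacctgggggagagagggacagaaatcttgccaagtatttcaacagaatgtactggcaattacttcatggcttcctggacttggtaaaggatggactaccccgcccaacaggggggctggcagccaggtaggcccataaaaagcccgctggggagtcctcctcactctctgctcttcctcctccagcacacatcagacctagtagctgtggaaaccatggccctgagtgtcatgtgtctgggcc
Serpina3n: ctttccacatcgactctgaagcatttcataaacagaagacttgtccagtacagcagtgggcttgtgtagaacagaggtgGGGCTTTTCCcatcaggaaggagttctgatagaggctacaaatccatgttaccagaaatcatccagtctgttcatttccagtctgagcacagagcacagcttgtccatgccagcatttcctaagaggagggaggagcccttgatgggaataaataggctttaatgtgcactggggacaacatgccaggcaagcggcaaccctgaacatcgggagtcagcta
Steap4: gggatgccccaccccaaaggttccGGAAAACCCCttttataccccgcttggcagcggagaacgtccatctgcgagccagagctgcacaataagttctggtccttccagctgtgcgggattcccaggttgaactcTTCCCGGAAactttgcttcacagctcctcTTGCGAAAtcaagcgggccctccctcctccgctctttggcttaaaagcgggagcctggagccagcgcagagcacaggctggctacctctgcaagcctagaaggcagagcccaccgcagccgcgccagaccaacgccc
The Lcn2 window held 1 C/EBP match and the Serpina3n window 1 NF-kB match. Steap4 held an NF-kB, a STAT and a C/EBP match. Of the 2 annotated Cp windows, one held an AP-1 and the other a C/EBP match. These matches describe the letters and not sites in use.

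There were 919 barcodes in the injured and 4159 in the uninjured library, and 7 occurred in both. After cells with 50000 or more gene UMIs were removed, 879 injured cells (8499672 gene UMIs) and 4159 uninjured cells (15543460) remained, with medians of 6816 and 3343 UMIs per cell. Cells were clustered without the 5 genes and named from marker genes. The astrocyte-like class had 378 injured and 2820 uninjured cells, and each of the 10 astrocyte markers had a UMI in 10% or more of these cells in either condition. Different clusters held most of it, since 333 of the injured cells were in cluster 3, which held 16 uninjured cells. Of the uninjured cells 2 were scored female, by Xist, and 2770 male, by Y-linked genes, against 250 and 315 injured cells. The uninjured library thus goes against the design text, which gives it animals of both sexes. A neuron-like cluster and an unnamed cluster carried both astrocyte and neuron genes and are given little weight here. Levels are CPM, the UMIs of a gene per 1000000 gene UMIs of the class, with exact Poisson 95% intervals, and ratios have exact 95% intervals. With 1 library per condition there was no test, no replicate check holds for any difference below, and all intervals cover counting error only.

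In astrocyte-like cells, 3 genes passed the filter of 10 CPM on average over the conditions, and all 3 (Lcn2, Serpina3n and Cp) were at least 2-fold higher in the injured library, where 16.2% of the 9540 genes that passed were. Each of the 3 was under 10 CPM in uninjured cells and passed through its injured level, so nothing is read from the count of 3. Lcn2 was at 235 CPM (215 to 255) in injured cells, with 540 UMIs. In the 2820 uninjured cells 0 UMIs were counted among 10277889. With the uninjured class set at 3 counts, the injured level was at least 804-fold higher, and the exact interval of the ratio starts at 652. Serpina3n stood at 361 CPM (337 to 386) after injury and 6.81 CPM (5.31 to 8.61) without, a ratio of 53.0 (41.5 to 68.6). Cp was at 42.2 CPM (34.2 to 51.4) against 4.86 CPM (3.61 to 6.41), a ratio of 8.67 (6.10 to 12.5).

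The other members were low in astrocytes. Serping1 had 24 UMIs in injured and 6 in uninjured cells, 10.4 CPM (6.69 to 15.5) against 0.584 CPM (0.214 to 1.27), a ratio of 17.9 (7.12 to 53.5). Steap4 had 2 UMIs in each condition, so no direction was read from it. As astrocyte references in the same cells, the filament gene Gfap was at 2620 and 55.0 CPM, a ratio of 47.7 (43.7 to 52.1). The glutamate transporter gene Slc1a2 was at 3304 and 4758 CPM, a ratio of 0.694 (0.678 to 0.711).

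Against all genes that passed the filter, the log2 ratio of Lcn2 with 1 CPM added to both sides, 7.88, was exceeded by that of 1 gene, Timp1. That of Serpina3n, 5.53, was exceeded by 33 genes and that of Cp, 2.88, by 230. The median gene was at 0.07. These 3 members passed the filter through their injured level, so nothing is read from the ranks. Among the male cells alone, Lcn2 was at 194 CPM (168 to 222) in 125 injured cells and had 0 UMIs in 1941 uninjured cells. Serpina3n was at 410 CPM (373 to 451) and 6.28 CPM (4.66 to 8.28), and Cp at 45.2 and 5.40 CPM. Each of these 3 genes stayed on the same side in the male cells as in all cells.

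The difference in Cp could not be read within clusters 3 and 4 of the class, where 1 condition had few UMIs. In cluster 4 the ratio was 3.05 (0.0703 to 21.4), from 1 injured and 10 uninjured UMIs. In cluster 3 Cp was at 44.3 CPM (35.9 to 54.1) in 333 injured and 41.3 CPM (11.2 to 106) in 16 uninjured cells, the latter from 4 UMIs in 2 cells, a ratio of 1.07 (0.406 to 4.02). The same 16 uninjured cells had 0 UMIs of Lcn2 and Serpina3n, and their Gfap level was 691 CPM. An unnamed cluster, led by the neurofilament genes Nefm and Nefl but also rich in astrocyte markers, had Serpina3n at 428 CPM (262 to 662) in 13 injured cells and 10.8 CPM (7.59 to 14.9) in 787 uninjured cells, and no Lcn2 UMI in either.

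**Figure D1:**
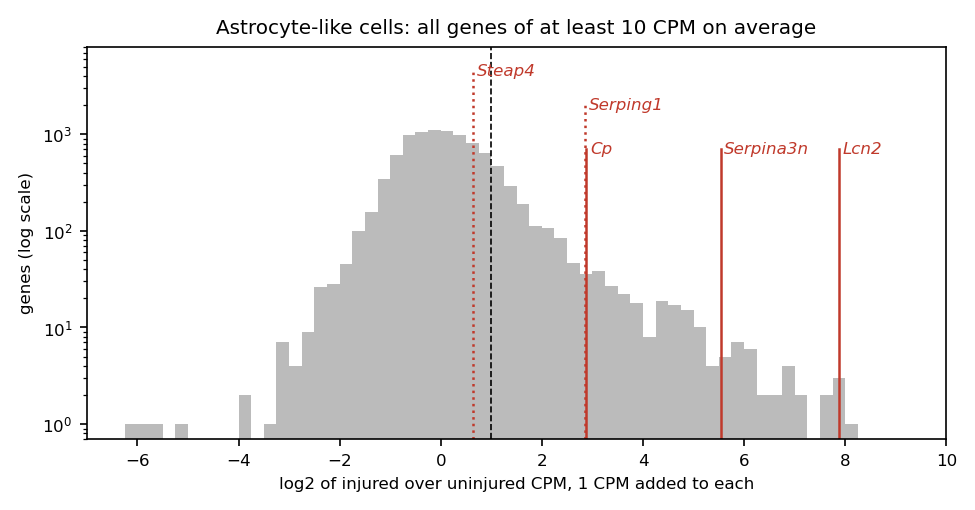
Histogram of log2 ratios (injured over uninjured CPM, 1 CPM added to each) in astrocyte-like cells for the 9540 genes of at least 10 CPM on average, with a log scale for the number of genes. Red lines mark the 5 genes, dotted for Serping1 and Steap4, which missed the filter, and the dashed line marks 2-fold. Lcn2 is at 7.88 and Serpina3n at 5.53, and both passed the filter through their injured level.

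The genes were spread over cells in different ways. A UMI of Lcn2 was found in 59 of 378 injured astrocyte-like cells, 15.6% (exact 95% interval 12.1 to 19.7), with a median of 3 UMIs in these cells and 71 in the richest one. As few as 6 cells held 50% of all Lcn2 UMIs, and 14 cells had 10 UMIs or more. Serpina3n was found in 185 cells, 48.9% (43.8 to 54.1), and 25 cells held 50% of its UMIs, of which the richest had 41. Cp was found in 36 cells, 9.52% (6.76 to 12.9), and Serping1 in 20 cells, 5.29% (3.26 to 8.05). In uninjured astrocyte-like cells the share was 0 of 2820 for Lcn2, with an exact 95% upper limit of 0.131%. It was 2.38% (1.85 to 3.01) for Serpina3n, 1.52% (1.11 to 2.05) for Cp and 0.213% for Serping1.

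Shares rise with depth, so cells were also thinned to 1000 UMIs, which left 348 injured and 2755 uninjured cells. Lcn2 then reached 9.77% and 0%, Serpina3n 24.1% and 0.617%, and Cp 2.87% and 0.399%. For comparison, 0 of 70 injured endothelial-like cells had a Serpina3n UMI at a median depth of 7972 UMIs, above the 3934 UMIs of injured astrocyte-like cells. For Lcn2, 2 of 40 injured OPC-like cells (oligodendrocyte progenitors) had 1 UMI each at a median of 20210 UMIs.

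**Figure D2:**
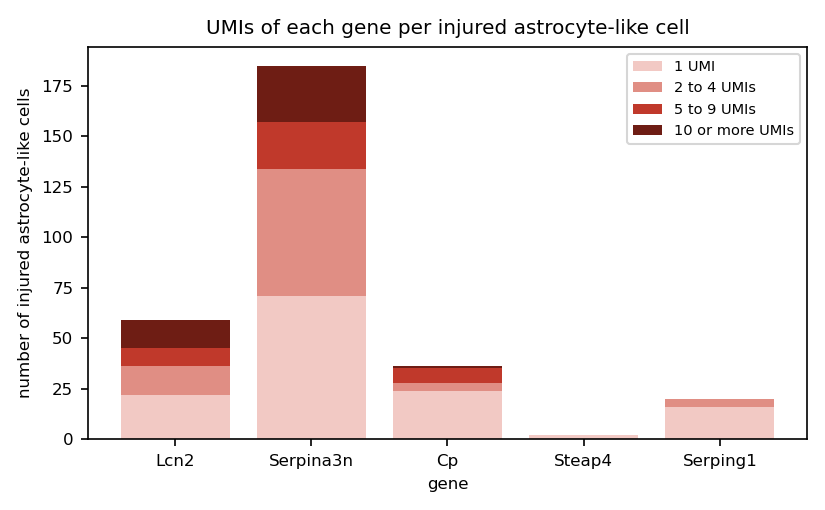
Stacked bars of the number of injured astrocyte-like cells (of 378) with 1, 2 to 4, 5 to 9 and 10 or more UMIs of each gene. Serpina3n was found in 185 cells and Lcn2 in 59, and 14 of the Lcn2 cells had 10 UMIs or more.

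A minority of cells had UMIs of more than 1 of the genes. At this depth a missing UMI does not show a missing transcript. Of 378 injured astrocyte-like cells, 149 had no UMI of any of the 5 genes, 170 had 1 of them, 47 had 2, 10 had 3 and 2 had 4. Lcn2 and Serpina3n shared 32 cells, where the product of their shares gives 28.9. Lcn2 and Cp shared 12, where the product gives 5.62. After thinning these counts were 11 against 8.21 and 2 against 0.977. The 59 cells with Lcn2 had a median depth of 4916 UMIs and the 319 without it 3911. Gfap was at 2840 CPM in the cells with Lcn2 and 2576 CPM in those without, and Timp1, a metalloprotease inhibitor gene, at 521 and 261 CPM. Within the class, Lcn2 was counted only in cluster 3, whose leading genes include Lcn2 itself and Gfap, while 34 injured cells of cluster 4 had 0 Lcn2 UMIs and 12 of Serpina3n (131 CPM, 67.7 to 229). In cluster 4 the uninjured level of Serpina3n was 4.30 CPM (2.22 to 7.50), so the difference was also present there, with a ratio of 30.5 (12.5 to 74.2).

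Across the injured classes each gene had its own order of levels. Lcn2 was highest in astrocyte-like cells, followed by endothelial-like cells at 108 CPM (85.9 to 134), a ratio of 2.17 (1.72 to 2.78). Next came microglia or macrophage-like cells at 21.7 CPM (15.6 to 29.4), a ratio of 4.99 (3.39 to 7.45). Ependymal-like cells were at 10.0 CPM (5.84 to 16.1) and fibroblast-like cells at 8.32 CPM (3.05 to 18.1), and these neighbours did not differ beyond counting error (1.21, 0.454 to 3.74). OPC-like cells were at 2.34 CPM. In uninjured cells Lcn2 had 3 UMIs in 1 endothelial-like cell, 1 UMI in a fibroblast-like cell and none in the other named classes. For endothelial-like cells the ratio of injured to uninjured was 3.82 (1.26 to 18.9). In male cells Lcn2 was at 47.5 CPM (24.5 to 82.9) in 20 injured and 45.3 CPM (9.34 to 132) in 14 uninjured endothelial-like cells. The uninjured male level came from 3 UMIs in 1 cell, so neither a difference nor its absence can be read there. The 27 injured female cells were at 165 CPM (127 to 211) and had no uninjured counterpart.

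Lcn2 of endothelial-like cells was set beside the astrocyte genes Gfap and Slc1a2. It was in 21 of 70 cells (30.0%, 19.6 to 42.1), and the level was 46.1% of that in astrocyte-like cells, where Gfap was at 0.408% and Slc1a2 at 0.0808%. All 21 cells had a UMI of Cldn5, the gene of an endothelial tight junction protein, as did 47 of the 49 endothelial-like cells without Lcn2. Without a Gfap UMI, 64 endothelial-like cells were at 104 CPM (81.4 to 132). The part of astrocyte transcripts in the endothelial-like level was not tested. The share of cells lay above that of astrocyte-like cells while the CPM lay below it, and thinned shares were 10.4% and 9.77%, so no order was read from the shares.

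Lcn2 is also a granule protein gene of neutrophils, so their markers were looked up. In injured astrocyte-like cells 4 of 10 neutrophil or monocyte markers had a UMI, 4 UMIs in all (1.74 CPM), with Ly6g, Ngp, Camp, Retnlg, Ly6c2 and Plac8 at 0. In injured microglia or macrophage-like cells these markers summed to 689 CPM, and 6 of the 10 had a UMI. Retnlg, Ly6g, Ngp and Camp were at 0 there too. In uninjured cells of this class the sum was 230 CPM, and 2 of the 10 had a UMI. In the injured class, 10 of 129 cells held the 41 Lcn2 UMIs. The richest cell had 14 Lcn2, 207 S100a8 and 263 S100a9 UMIs and none of the microglial gene Tmem119. The class without that cell was at 14.3 CPM (9.44 to 20.8). Among the other Lcn2 cells of this class 7 had Tmem119 UMIs and 1 had 21 UMIs of Cldn5. Whether these are cells of mixed content was not tested.

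**Figure D3:**
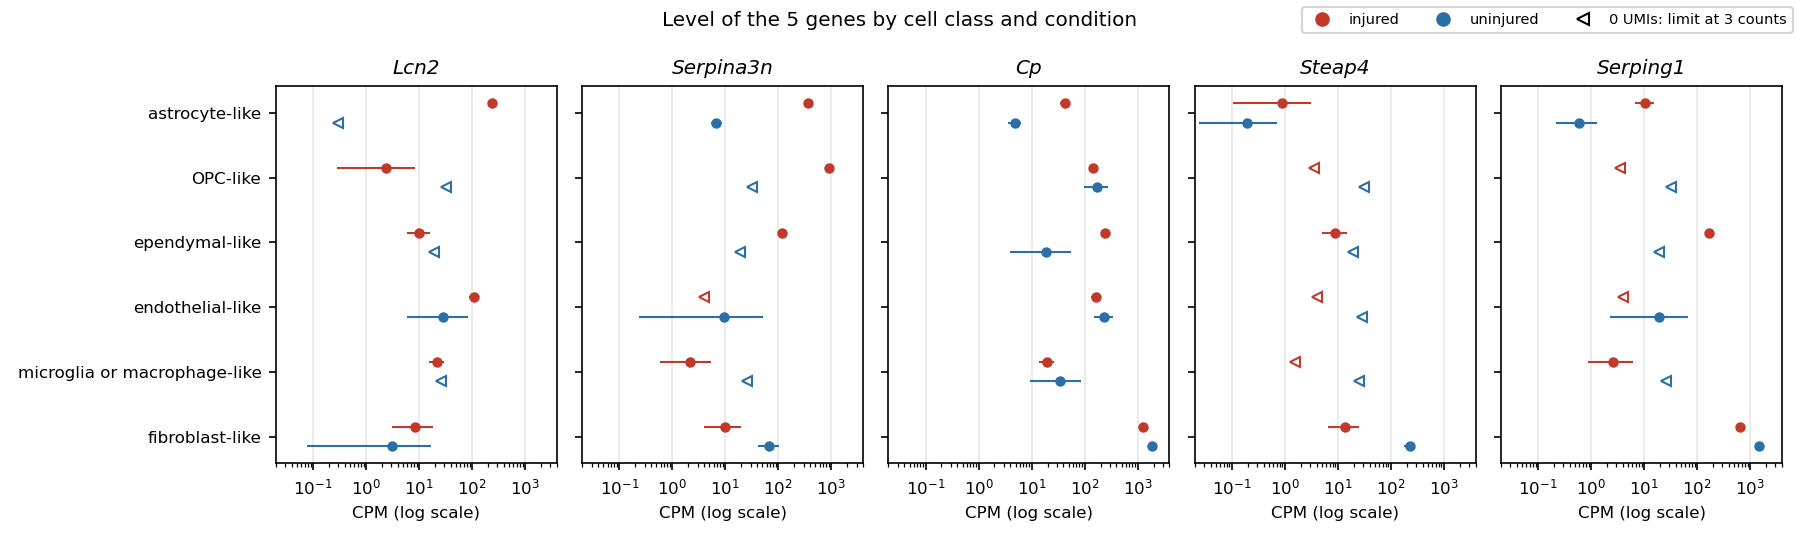
CPM of each gene (log scale) in 6 cell classes, injured in red and uninjured in blue, with exact Poisson 95% intervals; open triangles stand at 3 counts for groups with 0 UMIs, and OPC-like cells have 14 uninjured cells. Lcn2 was highest in injured astrocyte-like cells, Serpina3n in injured OPC-like cells, and Cp and Serping1 in fibroblast-like cells.

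Serpina3n was highest in injured OPC-like cells, at 892 CPM (829 to 957), 2.47 times (2.24 to 2.73) the astrocyte-like level. It was in 33 of 40 OPC-like cells, 82.5% (67.2 to 92.7), and in 37.5% of them after thinning. The 14 uninjured OPC-like cells, fewer than the 25 otherwise asked of a class, had 0 UMIs. Set at 3 counts, they put the injured level at least 28.2-fold higher, and the exact interval of the ratio starts at 22.9. Male cells were at 589 CPM (514 to 673) in 17 injured cells and had 0 UMIs in 10 uninjured cells. One cell held 208 of the 762 UMIs, and without it the level was 668 CPM (613 to 726). Gfap was at 236 CPM in these OPC-like cells, 9.02% of its astrocyte-like level. The 18 cells with Gfap all had Serpina3n. In the 22 OPC-like cells without a Gfap UMI, Serpina3n was at 265 CPM (216 to 321), with a UMI in 15 of them. This lay below the level of all injured astrocyte-like cells and above that of the 36 astrocyte-like cells without a Gfap UMI, 63.4 CPM (23.3 to 138). The part of astrocyte transcripts in the OPC-like level was not tested.

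Injured ependymal-like cells, the ciliated lining of the central canal, had 119 CPM of Serpina3n (103 to 137), with a UMI in 67 of 144 cells. The 31 uninjured ependymal-like cells had none, so the injured level was at least 6.30-fold higher at 3 counts (exact interval from 5.07). In injured endothelial-like cells 0 UMIs of Serpina3n were counted, against 81 of Lcn2. Microglia or macrophage-like cells had 4 UMIs of Serpina3n (2.11 CPM) and fibroblast-like cells 7 (9.70 CPM). Serpina3n was thus 0.586% of its astrocyte-like level in microglia or macrophage-like cells, where Gfap was at 0.807%.

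In ependymal-like cells Serpina3n, Cp and Serping1 passed the filter and were at least 2-fold higher in the injured library, where 10.1% of the 9747 genes that passed were. Serpina3n and Serping1 passed through their injured level alone, so nothing is read from this count either. Cp was at 238 CPM (216 to 263) after injury against 18.9 CPM (3.90 to 55.3) without it, the latter from 3 UMIs, a ratio of 12.6 (4.28 to 61.3). One cell held 79 of the 404 injured UMIs, and without it Cp was at 195 CPM (174 to 217). Serping1 was at 167 CPM (148 to 188), with a UMI in 79 of 144 cells, against 0 UMIs in uninjured cells. It was thus at least 8.82-fold higher at 3 counts (exact interval from 7.13). Steap4 had 15 UMIs in 7 injured cells (8.85 CPM, 4.95 to 14.6) and 0 in uninjured cells, where 3 counts would stand for 18.9 CPM, above that level. Lcn2 had 17 UMIs in 5 cells, 8 of them in a single cell. In male ependymal-like cells, 64 injured and 22 uninjured, Serpina3n was at 79.6 CPM against 0 UMIs, Serping1 at 129 CPM against 0 UMIs and Cp at 224 CPM against 17.2 CPM.

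Gfap was at 786 CPM in injured ependymal-like cells and at 0 UMIs in uninjured ones. Within the 47 injured ependymal-like cells without a Gfap UMI, Serpina3n was at 81.6 CPM (54.2 to 118), Cp at 146 CPM (108 to 192) and Serping1 at 72.9 CPM (47.2 to 108). The ependymal-like level of Serping1 was 16.0 times (10.5 to 25.4) that of astrocyte-like cells, and that of Cp 5.65 times (4.52 to 7.13), so for these genes the astrocytes held the lower level.

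Fibroblast-like cells carried the most Cp and Serping1. Cp was at 1282 CPM (1201 to 1368) in 43 injured and 1891 CPM (1745 to 2045) in 95 uninjured cells, a ratio of 0.678 (0.612 to 0.752). Serping1 was at 646 CPM (589 to 707) and 1476 CPM (1348 to 1614), a ratio of 0.438 (0.384 to 0.498). Steap4 was at 13.9 CPM (6.65 to 25.5) and 228 CPM (180 to 286), and Serpina3n at 9.70 and 67.0 CPM. Of the 4 members that passed the filter in this class, 3 (Serpina3n, Steap4 and Serping1) were at least 2-fold lower in the injured library, where 14.5% of the 9487 genes that passed were. Serpina3n was under 10 CPM in the injured cells and passed through its uninjured level. The upper UMI limit removed 40 injured and 0 uninjured cells, and 38 of the 40 had a Col1a1 UMI. In these 40 cells Cp was at 382 CPM and Serping1 at 55.8 CPM. How far the injured fibroblast-like levels depend on that limit was not tested.

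These fibroblast differences moved with the clusters in the class. All 43 injured cells were in cluster 10, whose leading genes include Col1a1, Col3a1 and Lum, while the uninjured cells were split between it (47 cells) and cluster 12 (48 cells), led by Apod, Gsn and Dcn, which had 0 injured cells. Within cluster 10, Cp was at 1282 and 1188 CPM, a ratio of 1.08 (0.910 to 1.29). Serpina3n was there at 9.70 and 7.66 CPM, from 7 UMIs and 1 UMI, a ratio of 1.27 (0.163 to 57.1). Steap4 was at 13.9 and 7.66 CPM in the injured and uninjured cells of cluster 10, from 10 UMIs and 1 UMI. Its ratio there was 1.81 (0.257 to 78.5), and its level in cluster 12 was 374 CPM (294 to 469). With 1 uninjured UMI each, neither a difference nor its absence can be read for Serpina3n and Steap4 in cluster 10. Serping1 stayed lower in that cluster, at 646 CPM (589 to 707) against 1241 CPM (1058 to 1448), a ratio of 0.520 (0.434 to 0.626). In male fibroblast-like cells of both clusters, 12 injured and 50 uninjured, Serping1 was at 889 and 1401 CPM, Steap4 at 16.2 and 256 CPM, and Cp at 1814 CPM (1650 to 1990) and 2011 CPM (1829 to 2206).

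**Figure D4:**
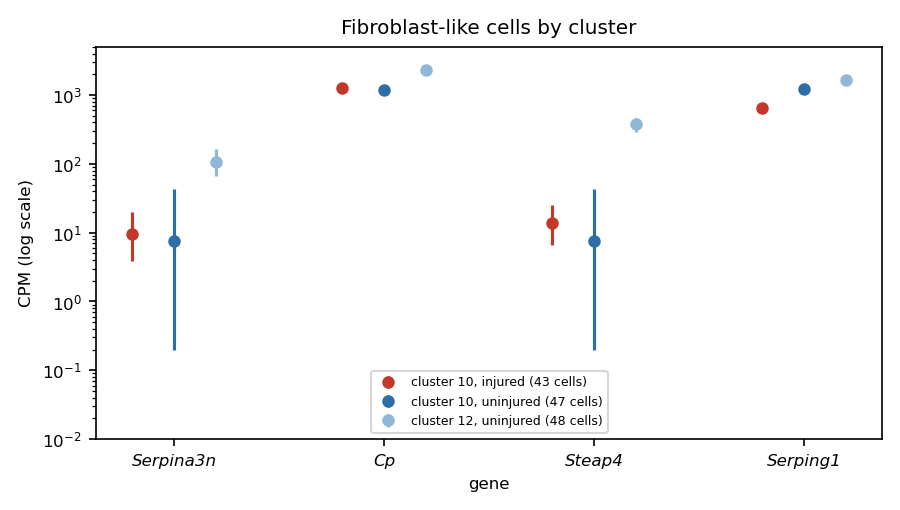
CPM (log scale) of 4 genes in fibroblast-like cells by cluster and condition, with exact Poisson 95% intervals. Steap4 and Serpina3n were high in cluster 12, which had uninjured cells alone, and Serping1 was lower in injured than in uninjured cells of cluster 10.

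Cp was also found in classes in which the conditions did not differ beyond counting error. It was at 162 CPM (134 to 193) in injured and 236 CPM (153 to 348) in uninjured endothelial-like cells, a ratio of 0.685 (0.443 to 1.10). In OPC-like cells it was at 145 CPM (121 to 173) and 169 CPM (96.4 to 274), a ratio of 0.860 (0.509 to 1.55). The injured endothelial-like and OPC-like levels did not differ beyond their intervals (1.11, 0.860 to 1.44). Mural-like cells, which wrap small vessels, had 730 CPM (560 to 936) with a UMI in all 13 injured cells. Astrocyte-like cells lay below each of these. Microglia or macrophage-like cells were at 19.6 CPM (13.8 to 27.0), with 14 of 37 UMIs in 1 cell, and injured neuron-like cells had 0 UMIs in 49 cells.

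Female and male cells were compared within the injured library. In astrocyte-like cells (74 female, 125 male) the female over male ratio was 1.17 (0.949 to 1.45) for Lcn2, 0.95 (0.814 to 1.11) for Serpina3n and 0.938 (0.574 to 1.51) for Cp. These 3 intervals include 1. In ependymal-like cells (59 female, 64 male) Serpina3n was at 173 CPM in female and 79.6 CPM in male cells, a ratio of 2.18 (1.60 to 2.97). Serping1 was at 222 and 129 CPM, 1.71 (1.33 to 2.20), and Cp at 283 and 224 CPM, 1.26 (1.03 to 1.54). Of the 17 Lcn2 UMIs of that class 16 were in female cells. The sexes stand for 1 or 2 pooled mice each, so sex and animal cannot be told apart.

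The other genes of the acute phase response were read from lists. Genes with at least 10 UMIs in astrocyte-like cells count as measured. Among all 14705 such genes 16.9% were at least 2-fold higher and 8.79% at least 2-fold lower in the injured library, with a median log2 ratio of 0.06. The injured class had 2299986 gene UMIs and the uninjured class 10277889, so genes near 10 UMIs are more readily called higher than lower. The counts of all lists below carry this tilt. Of 13 pan-reactive astrocyte genes, which include 4 of the 5 members, 12 were measured and 12 were at least 2-fold higher (median 5.54). Timp1 was at 8.12, the intermediate filament gene Vim at 7.70, the small heat shock protein gene Hspb1 at 7.03 and the asparaginase gene Aspg at 2.57. Steap4 was the member of that list that was not measured. Of the 12 astrocyte genes of systemic inflammation, which include Serping1, 11 were measured and 8 were higher (median 2.24). Ggta1 was at 3.70, Fkbp5 at 3.33 and Gbp2 at 3.05, while H2-T23 was at 0.47 and Amigo2 at -0.45.

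Of 28 other acute phase genes, 10 were measured, 8 were at least 2-fold higher and 1 was lower (median 2.34). The complement gene C4b was at 2.82 CPM in the uninjured and 111 CPM in the injured library (log2 ratio 4.88), and the pentraxin Ptx3 stood at 4.31 and the complement gene C3 at 4.23. The serum amyloid gene Saa3 was at 0.51. Itih3, a hyaluronan-binding inhibitor chain, was lower, at 621 CPM in uninjured and 189 CPM in injured cells (-1.71). Of the 10 Serpina3 family genes in the files, Serpina3n was the one that was measured, and the others had 2 UMIs or fewer each in astrocyte-like cells of either condition.

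Among 31 cytokine, receptor and factor genes that act upstream of the acute phase response, 25 were measured, 14 were at least 2-fold higher and 0 were lower (median 1.28). The highest were the C/EBP factor Cebpd at 4.97, the oncostatin M receptor Osmr at 4.88, the feedback inhibitor Socs3 at 3.85 and the ligand Clcf1 at 3.61. The receptor genes Lifr and Cntfr were at -0.50 and -0.87. The 6 genes that were not measured were the ligands Il6, Osm, Il11, Il1a, Il1b and Tnf. In injured microglia or macrophage-like cells Tnf was at 282 CPM, Il1a at 279 CPM, Il1b at 194 CPM and Osm at 31.7 CPM, whereas Il11 was at 73.5 CPM and Il6 at 16.6 CPM in injured fibroblast-like cells.

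Iron and copper handling genes had a median near that of all genes. Of 22 genes 18 were measured, 3 were at least 2-fold higher and 0 were lower (median -0.04). The 3 were the haem oxygenase gene Hmox1 at 4.05 and the ferritin chains Ftl1 at 3.17 and Fth1 at 2.87, and Hfe was at 0.88. The ferroxidase Heph, a relative of Cp, was at -0.58, and the copper transporter Atp7a at -0.80. Of 18 genes of the classical complement pathway and other C1 inhibitor targets, 8 were measured, 5 were higher and 1 was lower (median 2.49), with C4b at 4.88, the plasminogen activator Plat at 3.91, C1qb at 3.28, C1qa at 2.74, C2 at -0.99 and Masp1 at -1.25. C1qa and C1qb are genes of microglia, and were at 8.26 and 14.3 CPM in injured astrocyte-like cells against 5753 and 6061 CPM in injured microglia or macrophage-like cells. The part of microglial transcripts was not tested. None of the 7 protease genes of the serpin A3 list in the files was measured.

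**Figure D5:**
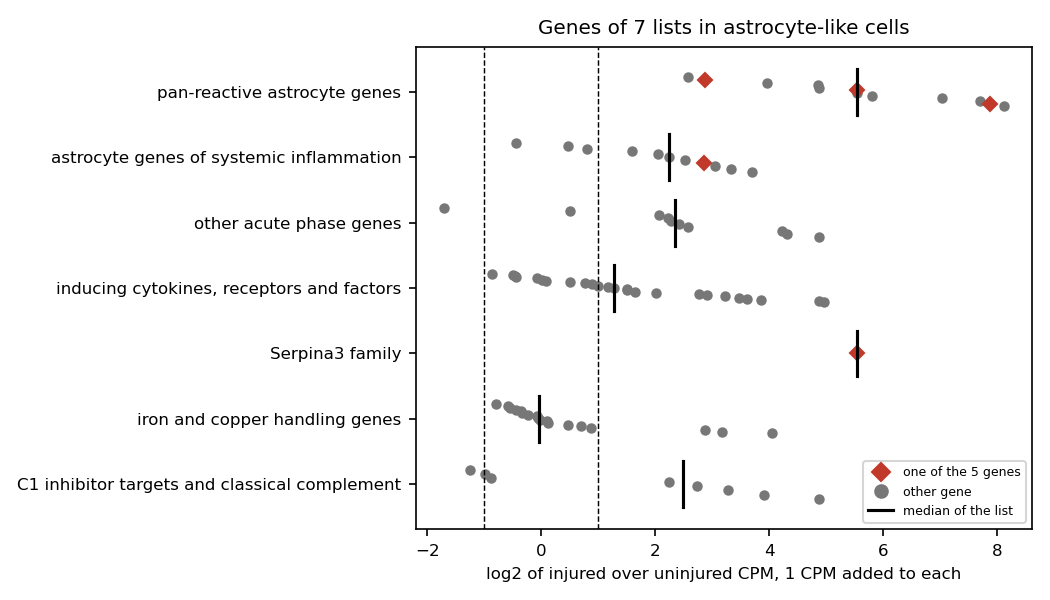
Log2 ratios (injured over uninjured CPM, 1 CPM added to each) of the measured genes of 7 lists in astrocyte-like cells, with the 5 genes as red diamonds, other genes as grey circles, list medians as black bars and dashed lines at 2-fold. The pan-reactive genes lie above 2-fold, and most iron and copper handling genes lie between the dashed lines.

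The profiles over the 13 groups of class and condition with at least 25 cells were compared with those of 8881 genes of at least 50 CPM in any group. The genes most like Lcn2 by Pearson's r of log2 CPM were the chemokine gene Cxcl10 (0.85), Capns1 (0.77) and Psmb1 (0.75). For Serpina3n they were C4b (0.90), 1110065P20Rik (0.86) and Adamtsl3 (0.85), and for Cp they were Hdac1 (0.94), Cpne8 (0.92) and Rcn3 (0.91). The genes most like Steap4 were Scara5 (0.99), C1s1 (0.95) and Ccn3 (0.94), and those most like Serping1 were Mmp11 (0.90), Scara5 (0.88) and Steap4 itself (0.88). The groups share 2 libraries and differ in depth, so these values describe the profiles only.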

How the data were processed

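Single-cell RNA-seq libraries (10x Genomics) of sorted tdTomato-positive spinal cord cells were used, 1 per condition. The authors deposited raw UMI counts per gene and cell after cell calling, with no normalisation. The file headers name Cell Ranger 7.1.0, the methods 8.0.1, and the submitters' processing notes mm10. Enhancer barcode counts were not used here. The cell filter asked for over 500 and under 50000 gene UMIs. Clusters came from Leiden at resolution 0.5 on a graph of 15 neighbours in 15 principal components, after scaling each cell to 10000, taking logs and choosing 2000 variable genes (scanpy 1.11.5, igraph 0.11.9, Python 3.11.15). The 5 genes, tdTomato and EGFP were left out of clustering. A cluster was named for its best-scoring marker list where the score was over 0.2, 3 or more of those markers had a UMI in 10% of the cells, and the 10 leading genes did not hold more markers of a different class. It stayed unnamed where its median depth times 3 was under that of its library and none of its own markers led. Cluster 9 scored highest for astrocytes but had more neuron markers (Nefm, Nefl) among its leading genes, and stayed unnamed. Names were rebuilt here and may differ from the study's.

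The members, markers and lists were chosen with earlier results of these data known. Named genes were the 5 members, Gfap and Slc1a2, the 4 highest and 2 lowest measured genes of each list, and the 3 genes most like each member. One gene that this rule names is not reported here. Other genes were named after their values were seen (Timp1, Cldn5, Tmem119, S100a8 and S100a9, cluster leading genes, and the ligands not measured in astrocytes). No doublets were removed, and Scrublet called 2 cells. Intervals are exact Poisson (levels), Clopper-Pearson (shares) and conditional binomial (ratios), from scipy 1.17.1, and cover counting error only. A class with 0 UMIs was set at 3 counts for a fold written as at least. Such a fold takes no account of counting error in the other class. The ratio was tested on simulated data. The alternatives tried covered the cell filter, clustering, class definition, sex, doublet score, pseudocount, centring and thinning.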

Additional observations from a re-analysis of the deposited data

Results flagged for a closer look

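Opposite directions in different classes were seen for 3 genes, and none of these differences was tested, since each condition is 1 library. For Serpina3n the log2 ratio of injured to uninjured (1 CPM added to both sides) was 5.53 in astrocyte-like, 6.91 in ependymal-like and -2.67 in fibroblast-like cells. For Cp it was 2.88, 3.59 and -0.56 in the same order, and for Serping1 2.85, 7.39 and -1.19. The ependymal-like values of Serpina3n and Serping1 stand against 0 uninjured UMIs and depend on the added CPM. Within fibroblast-like cluster 10, where both conditions had cells, the values were 0.31 for Serpina3n, 0.11 for Cp and -0.94 for Serping1. The lower direction remained for Serping1 and was not seen for Cp. For Serpina3n it cannot be read, since the uninjured cells of that cluster had 1 UMI (ratio 1.27, 0.163 to 57.1).

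The 40 injured cells with 50000 or more gene UMIs were left out of the comparisons in the text, were kept in the alternative without a cell filter, and had no uninjured counterpart. In them Cp was at 382 CPM (361 to 404) with a UMI in all 40 cells, Serping1 at 55.8 CPM, Lcn2 at 7.84 CPM, Steap4 at 5.12 CPM and Serpina3n at 4.52 CPM. Of these cells 38 had a UMI of Col1a1, a collagen gene, and 37 one of Pdgfra.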

How the results depend on the processing

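No paired analysis was possible because the conditions have 1 library each and no value comes from a test. No astrocyte result called at 2-fold changed direction under the alternatives run. Adding 0.1 CPM in place of 1 CPM gave log2 ratios of 11.2 for Lcn2 and 3.95 for Serping1, and adding 10 CPM gave 4.61 for Lcn2, 4.46 for Serpina3n, 1.81 for Cp and 0.95 for Serping1, so that Serping1 fell under 2-fold. The mean over cells gave 8.19 for Lcn2. Leiden resolution 1.0 gave 1.91 for the log2 ratio and 5.65% for the share of Cp, and 8.89% of genes past 2-fold. Shares in injured cells thinned to 1000 UMIs were 9.77% for Lcn2, 24.1% for Serpina3n, 2.87% for Cp, 0% for Steap4 and 0.575% for Serping1. With 2 UMIs asked of a cell they were 9.79%, 30.2%, 3.17%, 0% and 1.06% in the same order. Among cells of any class with an Aldh1l1 UMI the shares were 59.0% for Serpina3n, 16.1% for Cp and 11.9% for Serping1. That set is mixed, with 14 injured ependymal-like and 4 injured fibroblast-like cells, classes with more Cp and Serping1. In male cells the share was 66.4% for Serpina3n and 0% for Steap4, and the latter was also 0% at resolution 1.0. The male cells had a median of 7223 UMIs, against 3934 UMIs for all injured astrocyte-like cells. For Serpina3n the female share was 58.1% at a median of 6932.5 UMIs. The 179 cells without a sex score were at 33.0% and a median of 2308 UMIs. The causes were not tested. The 4 Steap4 UMIs gave log2 ratios from -0.32 to 1.72, so its direction was not detectable at this depth. Classes with 14 to 32 uninjured cells cannot show low levels, since 3 counts stand for 18.9 CPM in ependymal-like and 31.6 CPM in OPC-like cells.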
